A study of Rattus norvegicus with 18 samples.

Results

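Activity-induced immediate early genes are genes whose transcription starts within minutes of a stimulus without new protein synthesis. A set of 36 of them, chosen by symbol, was followed in RNA of the rat ventral tegmental area (VTA), where dopamine neurons of the reward system lie in the midbrain. The files held 38445 genes, every one of the 36 symbols matched 1 gene, and 35 of the 36 passed the filter on low counts and were tested among 17637 genes. Only Egr2 did not pass it. The 18 rats were adult male wild-type Sprague-Dawley rats, 6 in each of 3 groups. Withdrawal rats (13 to 18) had been fed the Lieber-DeCarli liquid diet with 9% (v/v) ethanol and were taken 24 h after it was removed. Chronic ethanol rats (7 to 12) had the same ethanol diet and were taken at 0 h, and control rats (1 to 6) had the liquid diet without ethanol. Diets lasted 15 or 16 days, and each library is 1 rat.

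In neurons, calcium entry and growth factor signals reach these genes through the kinases ERK and CaMK, which act on the transcription factors CREB and SRF already bound at their promoters. The products then act as transcription factors (the Fos, Jun, Egr and Nr4a families), as synaptic proteins (Arc, Homer1) or as brakes on the same signals (the Dusp phosphatases, Sik1, Zfp36). Their RNA is short-lived, so its level reflects recent stimulation, and in the brain Fos and Arc are widely used to mark cells that were recently active. CREB binds the cAMP response element (CRE), and SRF binds the CArG box.

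The promoter sequences of RefSeq (assembly GRCr8, 250 bases before to 50 after the start) matched 24 of the 36 genes. The CArG box was present in 5 of these 24 promoters (20.8%), against 1.64% of 27457 promoters of the same length. The full CRE, TGACGTCA, was in 4 of 24 (16.7%), against 1.91% of all. Its shorter core, TGACG on either strand, which each full CRE also contains, was in 15 of 24 (62.5%), against 22% of all. The pattern TGANTCA, with any base in the middle, is wider than the site of AP-1 (the dimer of Fos and Jun proteins). It was in 0 of 24 and in 7.33% of all promoters, so at most that share of all promoters holds the AP-1 site. These are matches of letters on both strands, with no measurement of binding. The 250 bases before the start are printed for 4 genes that carry the different kinds of match, with the matches in capitals. Egr1 has a pair of CArG boxes and 2 CRE cores (chr18:26736828-26737077, plus strand), Zfp36 has 1 CArG box (chr1:92799109-92799358, minus strand), Btg2 has 1 full CRE (chr13:48087691-48087940, minus strand), and Dusp5 has 2 adjoining CArG boxes and 1 CRE core (chr1:262543524-262543773, plus strand).
Egr1: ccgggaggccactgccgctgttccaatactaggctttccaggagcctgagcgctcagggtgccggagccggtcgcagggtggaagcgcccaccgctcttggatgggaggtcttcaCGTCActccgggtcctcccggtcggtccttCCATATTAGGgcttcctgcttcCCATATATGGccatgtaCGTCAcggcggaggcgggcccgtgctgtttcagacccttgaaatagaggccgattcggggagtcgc
Zfp36: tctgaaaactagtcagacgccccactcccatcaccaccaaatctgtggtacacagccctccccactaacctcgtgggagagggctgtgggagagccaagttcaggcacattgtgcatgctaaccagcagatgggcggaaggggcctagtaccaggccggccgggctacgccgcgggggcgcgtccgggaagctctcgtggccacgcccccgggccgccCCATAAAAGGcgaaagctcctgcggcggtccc
Btg2: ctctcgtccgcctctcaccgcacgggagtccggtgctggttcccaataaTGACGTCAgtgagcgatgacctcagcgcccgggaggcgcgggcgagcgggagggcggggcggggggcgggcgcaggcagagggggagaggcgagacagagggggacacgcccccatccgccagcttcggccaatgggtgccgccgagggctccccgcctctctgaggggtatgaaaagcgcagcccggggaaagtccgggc
Dusp5: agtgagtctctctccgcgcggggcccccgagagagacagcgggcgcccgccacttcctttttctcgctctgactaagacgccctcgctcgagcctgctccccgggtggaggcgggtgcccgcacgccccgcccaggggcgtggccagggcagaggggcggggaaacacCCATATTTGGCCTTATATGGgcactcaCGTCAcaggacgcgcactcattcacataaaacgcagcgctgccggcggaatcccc
Of the genes with a match, Egr1, Zfp36, Btg2, Dusp1, Egr4, Ier2, Junb, Nr4a1 and Sik1 were highest in chronic ethanol rat 11, described next. Dusp5, Egr2, Fosl1, Gadd45b, Klf6, Maff, Nfil3 and Rgs2, also with a match, were highest in another rat. Without a match in the window, Fosb, Npas4 and Klf4 were highest in rat 11, and Dusp6, Fosl2, Homer1 and Ier5 were not. Fosb, Npas4 and Klf4 were 67.2, 19 and 4.36 times the median of the other 17 rats in rat 11. Klf6 was at 1.28 times that median, and Egr2, which did not pass the filter, at 5.94 times. Whether the matches bear on these levels was not tested.

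Libraries held 29.6 to 45.1 M counted read pairs (median 38.4 M), and 3 counts, the limit that a count of 0 allows, stood for 0.0665 to 0.101 CPM (counts per 1 M counted pairs). This floor covers counting error only, since reads carried no molecular identifiers. Some libraries stood apart in markers of other tissue. A list of 6 genes (among them Slc17a7, Neurod6 and Hoxb3) was taken to mark glutamate neurons outside the VTA. Its sum was 816 CPM in withdrawal rat 13, 494 CPM in chronic ethanol rat 8 and 614 CPM in control rat 5. The sum was 4.48 to 29.6 CPM in the 14 rats other than these and rat 17. In rat 13 Slc17a7 alone gave 810 CPM, while Neurod6 and Hoxb3 had at most 4.02 and 2.01 CPM in withdrawal rats. For rat 13 the list therefore rests on 1 gene. Genes of the pineal gland summed to 15941 CPM in withdrawal rat 13, against 18.4 CPM at most in the 14 rats. The 8 dopamine neuron markers, Th and Slc6a3 among them, summed to 154 CPM in withdrawal rat 17 and 297 CPM in chronic ethanol rat 8, against 932 to 2832 CPM in the 14 rats. They were at 847 CPM in withdrawal rat 13 and 870 CPM in control rat 5. Control rat 3 stood apart in another way, since its 6 genes of pericytes and smooth muscle summed to 1039 CPM, against 334 CPM at most in the other 17 rats, and its 7 genes of meningeal fibroblasts to 399 CPM, against 294 CPM at most. In bulk tissue, fewer cells of a type and less RNA per cell cannot be told apart. Chronic ethanol rat 11, with 42.1 M counts, lay inside the range of the other 17 rats for each of the 13 marker lists, and its dopamine neuron markers summed to 1939 CPM.

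The 36 genes differed widely in level at rest. In control rats the median CPM per kilobase of exon was highest for Rgs2 (37), a regulator of G protein signalling, followed by Jun (15.9), the phosphatase Dusp1 (9.44), the growth arrest gene Gadd45b (7.22) and the zinc finger factors Klf2 (6.77) and Klf6 (6.6). Fos stood at 4.77 and Arc at 1.78 CPM per kilobase. The lowest were Egr4 (0.0936), Fosl1 (0.084) and Egr2 (0.0156). Pooled over the groups, the standard deviation between rats of a group on the log2(CPM + 0.5) scale had a median of 0.51 over the tested immediate early genes, against 0.22 over all genes tested. It was 0.15 for Homer1, 0.18 for Rgs2 and 1.44 for Fosb. Without chronic ethanol rat 11 the median was 0.35 over the immediate early genes and again 0.22 over all genes, and Fosb had 0.55.

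**Figure D1:**
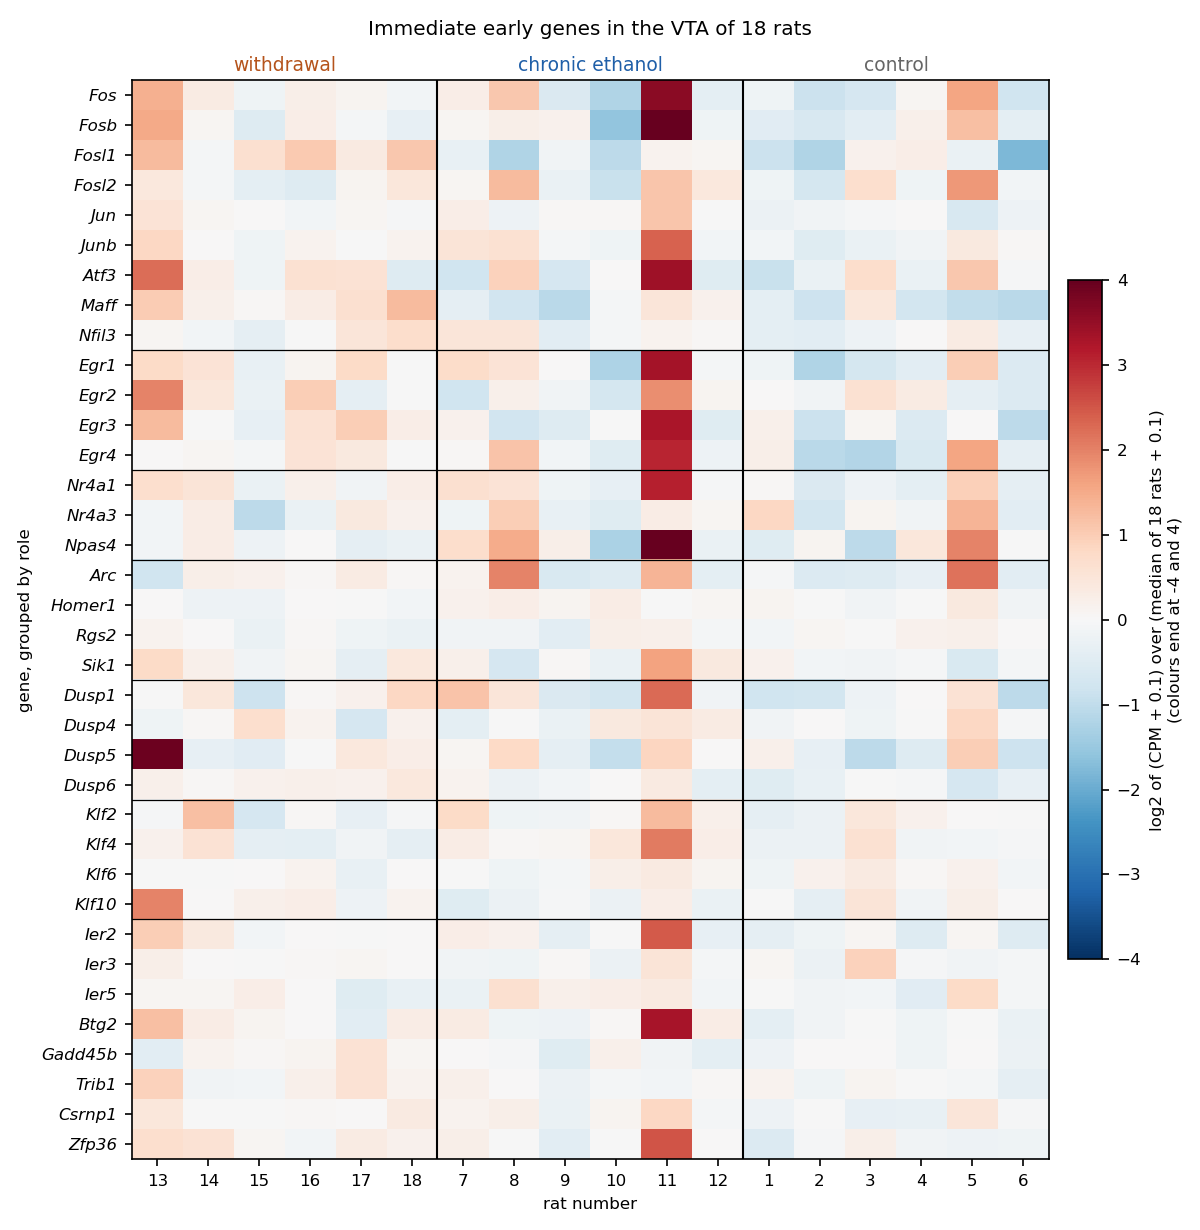
Each cell shows the log2 ratio of a gene's CPM in a rat (columns, by group) to its median over the 18 rats, with 0.1 CPM added to both, for the 36 genes (rows, by role). The column of chronic ethanol rat 11 is red for the Fos, Egr, Nr4a1 and Btg2 rows, while withdrawal rat 13, chronic ethanol rat 8 and control rat 5 are high in partly other rows.

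Single rats stood out within the groups. Chronic ethanol rat 11 had the highest level of all 18 rats for 18 of the 35 tested immediate early genes, whereas it was the highest for 336 of 17637 genes (1.91%). It exceeded 2 times the 18-rat median for 19 of 35 (54.3%), against 0.499% of all genes. Fosb was 67.2 times the median of the other 17 rats there, Npas4 was 19 times and Fos 13 times. Atf3, Egr4, Egr3 and Egr1 were 10.3 to 12.1 times that median, and Btg2 and Nr4a1 were 9.92 and 9.03 times. Another 7 genes were at 0.901 to 1.24 times that median in rat 11: Fosl1, Nfil3, Homer1, Rgs2, Klf10, Gadd45b and Trib1. The rule for the set named rat 11 as the rat with the highest Fos, so its Fos level is a description.

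Withdrawal rat 13 exceeded 2 times the 18-rat median for 9 of the 35 genes, against 11.1% of all genes, and chronic ethanol rat 8 for 7, against 3.05%. Control rat 5 did so for 9 of 35, against 3.62% of all genes. The genes differed from rat to rat. In chronic ethanol rat 8 they were Fos, Fosl2, Atf3, Egr4, Nr4a3, Npas4 and Arc, and control rat 5 shared all 7 and added Fosb and Dusp5. In withdrawal rat 13 they were Fos, Fosb, Fosl1, Atf3, Maff, Egr3, Dusp5, Klf10 and Btg2. These 3 rats are those with the markers of tissue outside the VTA given above, and the part of that tissue in their immediate early gene levels was not tested. Of the rats other than 5, 8, 11 and 13, none had more than 2 genes past this mark.

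**Figure D2:**
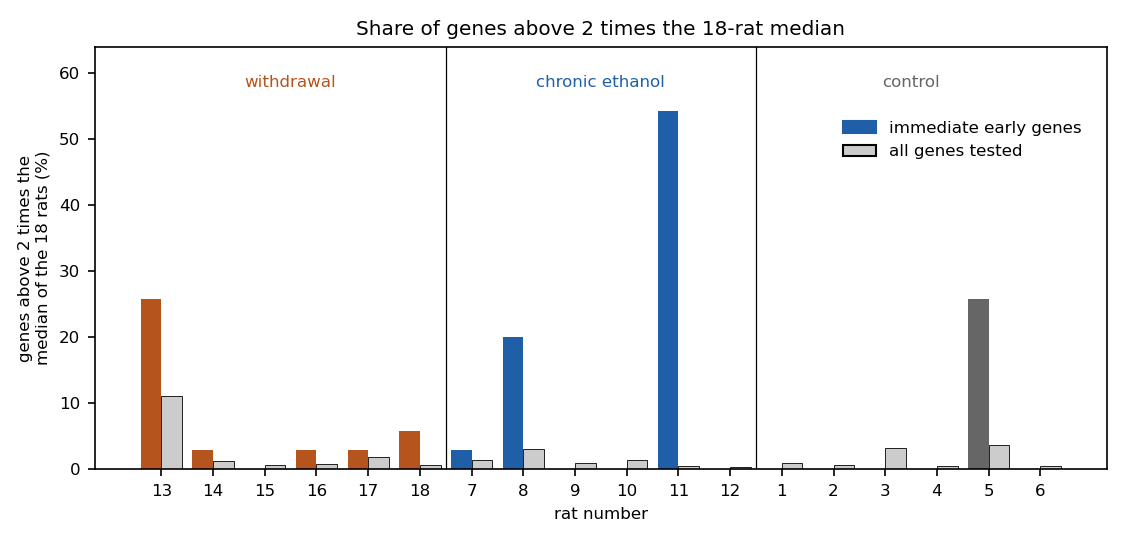
For each rat (x axis, by group), the bars give the percentage of the 35 tested immediate early genes (coloured) and of all 17637 tested genes (grey) above 2 times the 18-rat median. Rat 11 reached 54.3% and 0.499%, rats 13 and 5 reached 25.7% of the immediate early genes and rat 8 reached 20%.

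Among the AP-1 proteins, Fos (GeneID 314322, Rnor_6.0 chr6:109300433-109303299) had 8.97 to 27.3 CPM (median 11.4) in withdrawal rats, 4.35 to 123 CPM (median 9.81) in chronic ethanol rats and 5.55 to 30.3 CPM (median 7.58) in control rats. The groups overlapped, and the highest rat of each group (13, 11 and 5) stood well above the rest of it. Fosb (GeneID 100360880, chr1:80214691-80221417), a Fos relative whose truncated product accumulates with repeated stimulation, had 0.82 to 3.62 CPM (median 1.21) in withdrawal rats, 0.335 to 76.8 CPM (median 1.32) in chronic ethanol rats and 0.739 to 2.93 CPM (median 0.89) in control rats. The same 3 rats were highest, and without rat 11 the chronic ethanol group ended at 1.44 CPM. Fosb counts cover the whole gene, so its splice forms are not separated, and 143 of its exon bases lie under a gene on the opposite strand, from which strand-specific counting divides it.

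Jun, the main partner of the Fos proteins, had 51.3 to 81.7 CPM (median 57.8) in withdrawal rats, 48.4 to 121 CPM (median 57.3) in chronic ethanol rats and 35.4 to 56.1 CPM (median 49.3) in control rats. Junb, a Jun relative, had 7.77 to 15.6 CPM (median 9.21) in withdrawal rats, 7.8 to 45.4 CPM (median 10.4) in chronic ethanol rats and 6.16 to 11.5 CPM (median 8.05) in control rats. Rat 11 was again highest for both. Atf3, a stress-induced bZIP factor, had 0.49 to 3.92 CPM (median 1.04) in withdrawal rats, 0.39 to 8.88 CPM (median 0.64) in chronic ethanol rats and 0.363 to 1.7 CPM (median 0.675) in control rats.

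Fosl1 and Fosl2, the Fos-related antigens, were low. Fosl1 had 0.228 to 0.73 CPM (median 0.525) in withdrawal rats, 0.0496 to 0.283 CPM (median 0.199) in chronic ethanol rats and 0 to 0.32 CPM (median 0.14) in control rats, so it stood near the floor in several rats. Fosl2 had 0.542 to 1.18 CPM (median 0.835) in withdrawal rats, 0.402 to 2.11 CPM (median 1.01) in chronic ethanol rats and 0.468 to 2.97 CPM (median 0.743) in control rats, where rat 5 was highest. Maff (GeneID 366960, chr7:120580743-120592095), a small Maf protein without an activation domain, had 2.82 to 6.69 CPM (median 3.79) in withdrawal rats, 1.22 to 3.83 CPM (median 2.33) in chronic ethanol rats and 1.24 to 3.71 CPM (median 1.52) in control rats. All 6 withdrawal rats were above the control median, and only control rat 3, the rat with the high smooth muscle markers, reached the withdrawal range. Nfil3, a bZIP repressor tied to the circadian clock, had 5.11 to 10.7 CPM (median 6.68) in withdrawal rats, 4.82 to 9.2 CPM (median 7) in chronic ethanol rats and 4.83 to 8.19 CPM (median 5.38) in control rats.

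Of the Egr zinc finger factors, Egr1, Egr3 and Egr4 were highest in rat 11, and Egr2 was highest in rat 13. Egr1 (GeneID 24330, chr18:27657903-27660101) had 6.43 to 13.5 CPM (median 10.2) in withdrawal rats, 3.32 to 80.6 CPM (median 9.92) in chronic ethanol rats and 3.38 to 15.8 CPM (median 5.68) in control rats. Egr3 had 1.07 to 3.46 CPM (median 1.88) in withdrawal rats, 0.769 to 14 CPM (median 1.15) in chronic ethanol rats and 0.607 to 1.6 CPM (median 1.15) in control rats. Egr4 had 0.301 to 0.518 CPM (median 0.333) in withdrawal rats, 0.201 to 3.4 CPM (median 0.313) in chronic ethanol rats and 0.087 to 1.16 CPM (median 0.201) in control rats. Without rat 11 the chronic ethanol maxima were 13.3 CPM for Egr1, 1.54 CPM for Egr3 and 0.818 CPM for Egr4. Egr2, which in the periphery drives myelination by Schwann cells, had at most 0.757 CPM in withdrawal rats (rat 13), 0.685 CPM in chronic ethanol rats (rat 11) and 0.232 CPM in control rats, and was not tested.

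The orphan nuclear receptor Nr4a1 had 6.59 to 12.7 CPM (median 9.26) in withdrawal rats, 6.23 to 68.9 CPM (median 9.58) in chronic ethanol rats and 5.25 to 15.3 CPM (median 6.49) in control rats. Its relative Nr4a3 did not share the peak in rat 11 (4.91 CPM) and had 1.86 to 5.23 CPM (median 4.08) in withdrawal rats, 2.81 to 7.96 CPM (median 3.89) in chronic ethanol rats and 2.34 to 10.3 CPM (median 3.96) in control rats. Npas4, a neuron-specific factor that depends on calcium entry, had 1.66 to 2.68 CPM (median 1.93) in withdrawal rats, 0.837 to 40.4 CPM (median 3.1) in chronic ethanol rats and 0.986 to 8.78 CPM (median 2.22) in control rats. Withdrawal rats lay close together for Npas4, rat 13 included.

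Among synaptic and signalling effectors, Arc (GeneID 54323, chr7:115907097-115911059), which promotes removal of AMPA receptors from synapses, had 4.65 to 10.3 CPM (median 8.96) in withdrawal rats, 5.32 to 33.1 CPM (median 7.71) in chronic ethanol rats and 5.62 to 37.3 CPM (median 6.3) in control rats. Its 3 highest rats were control rat 5 (37.3 CPM), chronic ethanol rat 8 (33.1 CPM) and chronic ethanol rat 11 (21.3 CPM). Arc was therefore ordered unlike Fos, with rat 11 behind rats 5 and 8, and rat 13 the lowest of the 18 rats. Homer1, a scaffold of metabotropic glutamate receptors, had 20.4 to 24 CPM (median 22.4) in withdrawal rats, 23.1 to 28.7 CPM (median 25.8) in chronic ethanol rats and 21.1 to 31 CPM (median 23.3) in control rats. These counts join the long forms with the short form that activity induces. Rgs2 had 20.3 to 26.7 CPM (median 23.1) in withdrawal rats, 18.2 to 28.8 CPM (median 22.6) in chronic ethanol rats and 22.6 to 27.9 CPM (median 25.3) in control rats. Sik1, a kinase that restrains the CREB coactivators, had 4.36 to 9.59 CPM (median 6.27) in withdrawal rats, 3.52 to 17.3 CPM (median 6.1) in chronic ethanol rats and 3.66 to 6.41 CPM (median 5.29) in control rats, with rat 11 highest.

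The dual-specificity phosphatases, which switch off MAP kinases, split into different patterns. Dusp1, a nuclear phosphatase of p38 and JNK, had 13.9 to 44.6 CPM (median 26.9) in withdrawal rats, 15 to 119 CPM (median 28.7) in chronic ethanol rats and 12 to 36.9 CPM (median 18.2) in control rats. Dusp6 (GeneID 116663, chr7:41475163-41479393), the cytoplasmic phosphatase of ERK, had 15.4 to 19.9 CPM (median 16.9) in withdrawal rats, 11.2 to 18.9 CPM (median 14.4) in chronic ethanol rats and 9.32 to 14.5 CPM (median 11.9) in control rats. Every withdrawal rat was above every control rat for Dusp6, and chronic ethanol rats overlapped both groups. Dusp5, a nuclear phosphatase of ERK, had 0.985 to 22.2 CPM (median 1.52) in withdrawal rats, 0.67 to 2.6 CPM (median 1.42) in chronic ethanol rats and 0.609 to 2.79 CPM (median 1.01) in control rats. Its single high value was that of rat 13. Dusp4 had 2.49 to 6.45 CPM (median 4.31) in withdrawal rats, 3.07 to 5.88 CPM (median 4.55) in chronic ethanol rats and 3.57 to 7.22 CPM (median 3.95) in control rats.

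**Figure D3:**
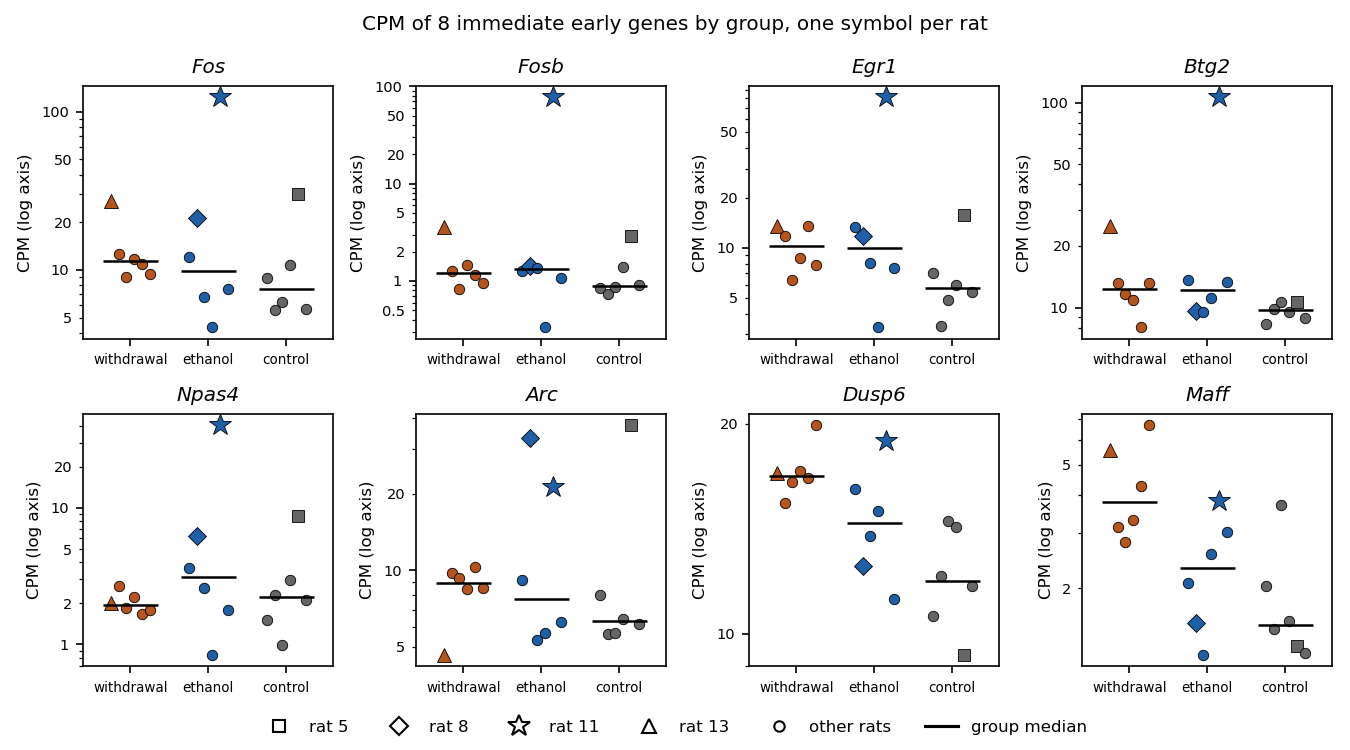
CPM (log axes) of 8 genes in each rat by group, with the group median as a line and rats 5, 8, 11 and 13 by their own symbols. Rat 11 is highest for Fos (123 CPM), Fosb, Egr1, Btg2 and Npas4, control rat 5 (37.3 CPM) is highest for Arc, and for Dusp6 all withdrawal rats (15.4 to 19.9 CPM) lie above all control rats (9.32 to 14.5 CPM).

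Of the Kruppel-like factors, Klf4 had 4.64 to 9.16 CPM (median 5.07) in withdrawal rats, 6.22 to 25.9 CPM (median 7.44) in chronic ethanol rats and 5.1 to 9.39 CPM (median 5.53) in control rats. Klf2, best known from endothelial cells under flow, had 4.46 to 16.5 CPM (median 6.9) in withdrawal rats, 6.35 to 17.2 CPM (median 7.81) in chronic ethanol rats and 5.56 to 9.88 CPM (median 7.15) in control rats. Rat 11 was highest for both. Klf6 had 29.9 to 40.7 CPM (median 36.8) in withdrawal rats, 33 to 47.5 CPM (median 38.3) in chronic ethanol rats and 33.2 to 47.9 CPM (median 39.7) in control rats. Klf10, a TGF-beta-induced factor, had 4.95 to 22.9 CPM (median 6.54) in withdrawal rats, 4.09 to 6.87 CPM (median 4.9) in chronic ethanol rats and 4.46 to 8.2 CPM (median 5.74) in control rats, and its highest rat was rat 13.

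Among the remaining early response genes, Btg2 (GeneID 29619, chr13:50913185-50916944), an antiproliferative protein, had 8.03 to 25.1 CPM (median 12.4) in withdrawal rats, 9.47 to 106 CPM (median 12.2) in chronic ethanol rats and 8.29 to 10.7 CPM (median 9.7) in control rats. Ier2 had 6.65 to 14.1 CPM (median 7.21) in withdrawal rats, 5.56 to 39.5 CPM (median 7.59) in chronic ethanol rats and 4.95 to 7.62 CPM (median 5.89) in control rats. Zfp36 (tristetraprolin), which speeds the decay of messenger RNAs with AU-rich elements, had 7.25 to 12.5 CPM (median 9.33) in withdrawal rats, 5.85 to 45.3 CPM (median 7.8) in chronic ethanol rats and 5.26 to 9.16 CPM (median 7.03) in control rats. Rat 11 was highest for these 3 genes and, less far above the others, for Csrnp1. Csrnp1 had 4.99 to 7.05 CPM (median 5.2) in withdrawal rats, 4.22 to 9.05 CPM (median 5.54) in chronic ethanol rats and 4.03 to 7.08 CPM (median 4.64) in control rats. Ier3 had 6.51 to 7.81 CPM (median 6.76) in withdrawal rats, 5.66 to 9.52 CPM (median 6.11) in chronic ethanol rats and 5.64 to 12.6 CPM (median 6.32) in control rats. Ier3 was highest in control rat 3, and the part of its smooth muscle and meningeal markers in that level was not tested. Ier5 had 9.28 to 15.7 CPM (median 13.4) in withdrawal rats, 10.8 to 20.5 CPM (median 15.4) in chronic ethanol rats and 9.48 to 22.1 CPM (median 12.2) in control rats. Gadd45b, a stress sensor linked to DNA demethylation, had 8.7 to 17.6 CPM (median 12.5) in withdrawal rats, 8.32 to 13.6 CPM (median 11.1) in chronic ethanol rats and 10.1 to 12 CPM (median 11.1) in control rats. Trib1, a pseudokinase, had 4.14 to 8.67 CPM (median 5.15) in withdrawal rats, 3.81 to 5.28 CPM (median 4.42) in chronic ethanol rats and 3.49 to 5.02 CPM (median 4.39) in control rats. Both Gadd45b and Trib1 had their highest value in a withdrawal rat, rat 17 and rat 13.

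Chronic ethanol was first compared with control. No immediate early gene passed an adjusted p under 0.05 (edgeR quasi-likelihood test, Benjamini-Hochberg over all genes), as for 0% of all genes. DESeq2 also called 0 of 35, against 0.261% of all genes, and limma-voom 0 of 35, against 0.0113%. At an unadjusted p under 0.05, 12 of 35 were higher in chronic ethanol rats and 0 lower, against 5.84% of all genes. The median log2 change of the 35 genes was 0.34, with 29 higher and 6 lower, against 0.00 over all genes. Without rat 11, 0 of 35 had an unadjusted p under 0.05 (5.59% of all genes), the median was 0.09, and 22 were higher and 13 lower. No gene of the set lay above every control rat in all chronic ethanol rats (0.522% of all genes) or below in all (0.408%). Without rats 5, 8, 13 and 17 the median was 0.51, with 15 of 35 at an unadjusted p under 0.05 (13% of all genes), and without these and rat 11 it was 0.16, with 3 of 35 at an unadjusted p under 0.05 (12.9% of all genes).

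Fosb had the lowest p, with a log2 change of 3.41 ± 1.11 (SE, n = 6 each, edgeR adjusted p = 0.676), and 5 of 6 chronic ethanol rats were above the control median. Without rat 11 its change was -0.22 ± 0.45. Btg2 changed by 1.49 ± 0.54 (edgeR adjusted p = 0.78), and by 0.24 without rat 11. For Egr1 the change was 1.55 ± 0.61 (edgeR adjusted p = 0.823) and 0.31 without rat 11. Jun had 0.48 ± 0.19 with the same edgeR adjusted p of 0.823, and 0.23 without rat 11. Of the other genes with the lowest p, Junb had a log2 change of 0.93, Ier2 of 1.01, Nr4a1 of 1.25 and Egr3 of 1.55 (edgeR adjusted p of 0.827 to 0.834). Without rat 11 these 4 changes were 0.26, 0.18, 0.16 and -0.01. Fos differed by 1.37 ± 0.71 (edgeR adjusted p = 0.884) and, without rat 11, by -0.11 ± 0.48. Arc differed by 0.22 ± 0.53 (edgeR adjusted p = 0.999), and the value was -0.27 without chronic ethanol rat 8 and 1.08 without control rat 5.

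**Figure D4:**
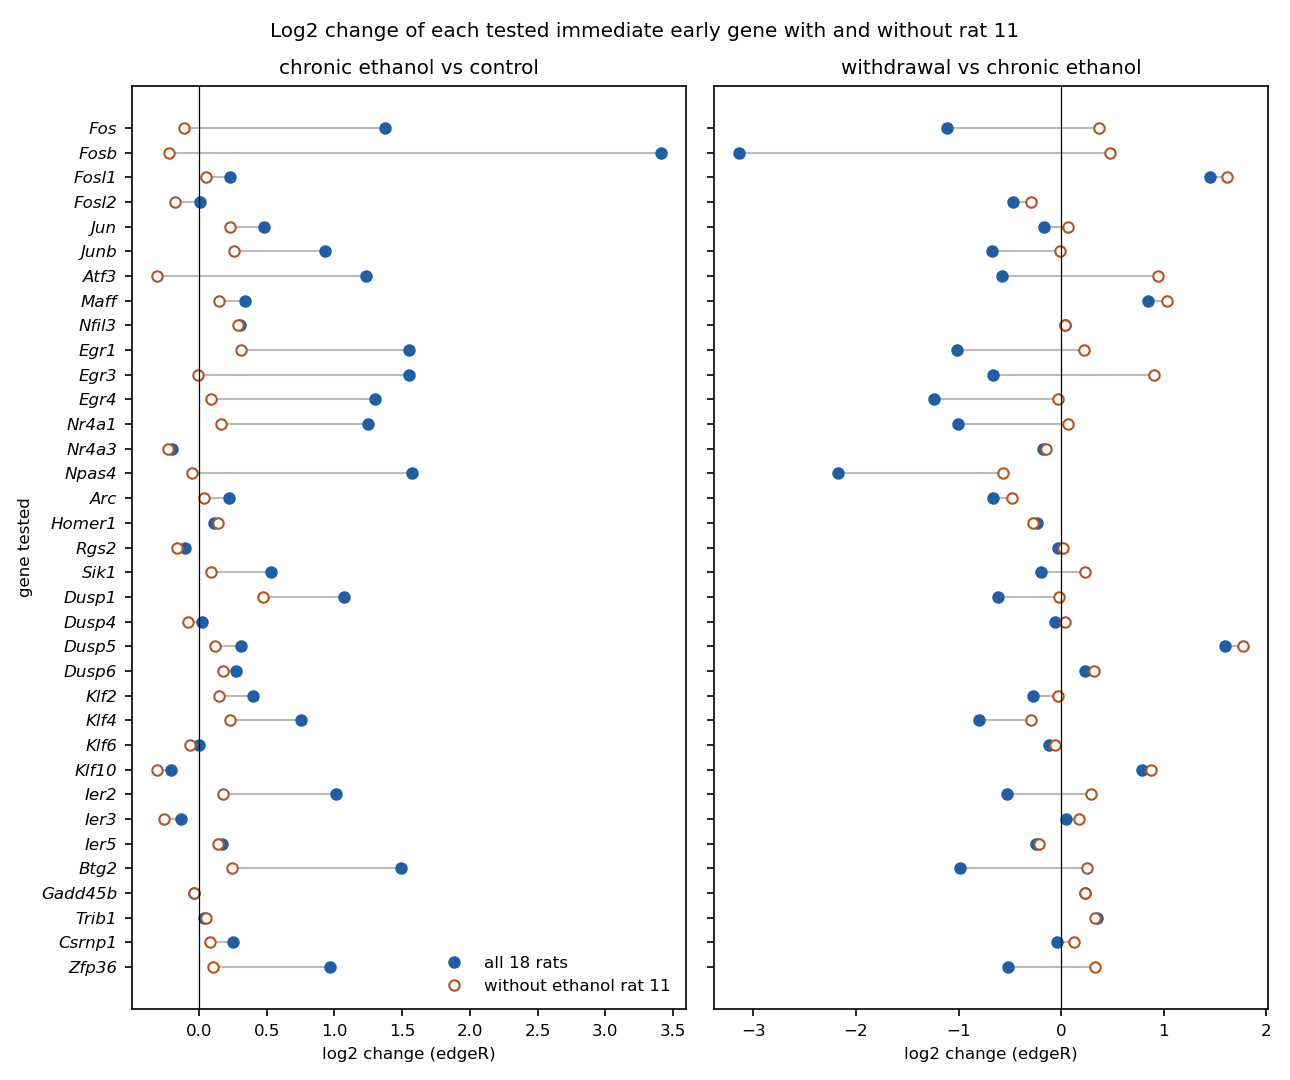
Log2 change of each of the 35 tested genes with all rats (filled) and without chronic ethanol rat 11 (open), for chronic ethanol against control (left) and withdrawal against chronic ethanol (right). Without rat 11 the Fosb value moves to -0.22 on the left and 0.48 on the right, while Maff, Homer1, Fosl1 and Klf10 stay near their places.

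Withdrawal was then compared with control, a contrast that rat 11 enters only through the shared estimate of the spread when the fit has the group alone. No immediate early gene passed an adjusted p under 0.05, as for 0% of all genes (edgeR). DESeq2 called 0 of 35, against 0.266% of all genes, and limma-voom 0 of 35, against 0%. At an unadjusted p under 0.05, 5 of 35 were higher and 0 lower, against 9.82% of all genes. The median log2 change was 0.26, with 24 higher and 11 lower, against 0.01 over all genes. Without rat 11 in the fit, 10 of 35 had an unadjusted p under 0.05, all higher, against 9.12% of all genes. At an adjusted p, 0 of 35 passed, and 0.00563% of all genes. The 10 were Dusp6, Maff, Fosl1, Zfp36, Egr3, Dusp5, Ier2, Jun, Btg2 and Trib1. Without rats 5, 8, 13 and 17, which keeps rat 11, it was 3 of 35, against 7.72% of all genes, and without rats 5, 8, 11, 13 and 17 it was 10 of 35, against 7.75%. In both of these fits 28 were higher and 7 lower. The median was 0.42 without control rat 5 and 0.11 without withdrawal rat 13.

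Dusp6 was the gene with the lowest p, at a log2 change of 0.51 ± 0.13 (SE, n = 6 each, edgeR adjusted p = 0.315). All 6 withdrawal rats were above all 6 control rats, as was the case for 0.227% of all genes, and no gene of the set lay the other way (0.38% of all genes). For Dusp6 the change was 0.44 to 0.56 with single rats left out. Maff differed by 1.19 ± 0.32 (edgeR adjusted p = 0.349), with 6 of 6 withdrawal rats above the control median and 1.01 to 1.49 with single rats left out, the highest without control rat 3. When any difference among the 3 groups was tested, edgeR called 0 of 35 immediate early genes (lowest adjusted p = 0.176), as it did 0% of all genes, and 11 of 35 had an unadjusted p under 0.05 against 11.5% of all. DESeq2 called 2 of 35 there, Maff (adjusted p = 0.0406) and Dusp6 (adjusted p = 0.048), against 1.69% of all genes, while limma-voom called 0 of 35 (0.0113% of all genes). The DESeq2 adjusted p for Dusp6 in withdrawal against control was 0.0506. Fosl1 differed by 1.68 ± 0.54 (edgeR adjusted p = 0.401) at the low levels given above.

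The other genes with the lowest p moved when 1 rat was left out. Dusp5 differed by 1.91 ± 0.74 (edgeR adjusted p = 0.446) and by 0.11 without withdrawal rat 13. Klf10 differed by 0.58 (edgeR adjusted p = 0.535) and by 0.04 without it. Trib1 differed by 0.39 ± 0.16 (edgeR adjusted p = 0.476), Nfil3 by 0.33 (edgeR adjusted p = 0.56) and Jun by 0.31 (edgeR adjusted p = 0.571). Without rat 13 Trib1 had 0.23 and Jun 0.20, and without withdrawal rat 18 Nfil3 had 0.19. Fos differed by 0.26 ± 0.71 (edgeR adjusted p = 0.909), with 6 of 6 withdrawal rats above the control median, by -0.06 without rat 13 and by 0.87 without control rat 5. Arc differed by -0.44 ± 0.54 (edgeR adjusted p = 0.777) and by 0.42 without control rat 5.

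Control and withdrawal rats shared no sequencing index. The name of each library carries an index, which was the same for control rats and ethanol rats 7 and 8, another for ethanol rats 9 to 12 and withdrawal rats 13 to 16, and yet another for withdrawal rats 17 and 18. A fit that adds the index ties withdrawal to control through the ethanol rats of both indexes, so rat 11 then enters this contrast directly. It gave the immediate early genes a median of -0.10 in withdrawal against control, with 15 higher and 20 lower, and 2 of 35 at an unadjusted p under 0.05 (5.82% of all genes). Without rat 11 the same fit gave a median of 0.63, with 29 higher and 6 lower and 10 of 35 at that p (4.67% of all genes). Fos was at -0.66 with rat 11 and at 1.83 without it, so the negative sign rests on that rat. Index and group cannot be told apart between withdrawal and control rats, which share none. With the index added, Dusp6 differed by 0.41 ± 0.24 (edgeR adjusted p = 0.793), Maff by 0.42 ± 0.58 (edgeR adjusted p = 0.872) and Fosl1 by 0.81 ± 1.13 (edgeR adjusted p = 0.872). Without rat 11 these values were 0.55, 0.63 and 0.97 (edgeR adjusted p of 0.86 to 0.889). Withdrawal rats 13 to 16 had 15.4 to 17.1 CPM of Dusp6 (median 16.8), against 11.2 to 18.9 CPM (median 14.4) in ethanol rats 9 to 12 of the same index. For Maff it was 2.82 to 5.57 CPM (median 3.23) in those withdrawal rats, against 1.22 to 3.83 CPM (median 2.81) in those ethanol rats. Within the index of the controls, ethanol rats 7 and 8 had 12.5 and 16.1 CPM of Dusp6, against 9.32 to 14.5 CPM in control rats. There, 28 of 35 immediate early genes had a higher mean of log2(CPM + 0.5) over ethanol rats 7 and 8 than over control rats. A gene could count so with only 1 of these 2 rats high. The median difference of the means was 0.23 over the 35 genes, against 0.00 over all genes tested. With the index added, chronic ethanol against control gave 0.08 for Fosb, 0.27 for Btg2, 0.82 for Egr1 and 0.57 for Fos. These values rest on ethanol rats 7 and 8 and do not use rat 11 directly. Rat 8 is among the rats with markers of tissue outside the VTA, and its part in the fits with the index was not tested. In this comparison the fit with the index had 1 of 35 at an unadjusted p under 0.05 (6.75% of all genes), and 3 of 35 without rat 11 (6.29%).

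Withdrawal was last compared with chronic ethanol. No immediate early gene passed an adjusted p under 0.05, as for 0% of all genes (edgeR). DESeq2 called 0 of 35, against 1.67% of all genes, and limma-voom 0 of 35, against 0%. At an unadjusted p under 0.05 there were 9 of 35, 5 higher and 4 lower in withdrawal rats, against 15.3% of all genes. The median log2 change was -0.25, with 9 higher and 26 lower, against 0.02 over all genes. Without rat 11 the median turned to 0.12, with 23 higher and 12 lower, and 7 of 35 had an unadjusted p under 0.05 (14.9% of all genes), 0 of 35 and 0.0675% of all genes passing at an adjusted p. Without rats 5, 8, 13 and 17 there were 5 of 35 (13.1% of all genes) and the median was -0.25, and without rat 11 as well there were 5 of 35 (14.7%) and the median was again 0.12. With all rats, no gene of the set had withdrawal rats all above (0.811% of all genes) or all below (0.544%) chronic ethanol rats. Within the index shared by rats 9 to 16, 11 of 35 had a higher mean of log2(CPM + 0.5) in withdrawal rats (median difference -0.14). Without rat 11 it was 30 of 35 (median difference 0.31). The median over all genes tested was 0.02 both with and without rat 11. The fit with the index added takes this contrast from the same rats 9 to 16 and uses the other rats only for the spread. It is therefore not a second comparison. It had 5 of 35 at an unadjusted p under 0.05 (13.7% of all genes) and a median of -0.23. Without rat 11 it had 7 of 35 (11.5%) and a median of 0.37.

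Fosb differed by -3.14 ± 1.10 (SE, n = 6 each, edgeR adjusted p = 0.217) and, without rat 11, by 0.48. Npas4 differed by -2.18 ± 0.77 (edgeR adjusted p = 0.221) and by -0.57 without rat 11, and 0 of 6 withdrawal rats were above the chronic ethanol median. Klf4 differed by -0.80 (edgeR adjusted p = 0.274), and by -0.29 without rat 11. Fos differed by -1.11 (edgeR adjusted p = 0.446), and by 0.37 without rat 11. Arc differed by -0.66 (edgeR adjusted p = 0.553), and by -0.17 without chronic ethanol rat 8.

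Other genes kept their value without rat 11. Homer1 was lower in withdrawal rats by a log2 change of -0.24 ± 0.09 (edgeR adjusted p = 0.25), with 0 of 6 withdrawal rats above the chronic ethanol median. Without rat 11 it was -0.27, and all withdrawal rats (20.4 to 24 CPM) then lay below all chronic ethanol rats (25 to 28.7 CPM), as was so for 1.17% of all genes. No gene of the set then lay wholly above (1.61%). Maff differed by 0.85 ± 0.32 (edgeR adjusted p = 0.248), by 1.03 without rat 11 (edgeR adjusted p = 0.181) and by 0.48 ± 0.38 with the index added (edgeR adjusted p = 0.549). Fosl1 differed by 1.45 ± 0.52 (edgeR adjusted p = 0.232), and by 1.62 without rat 11. Klf10 differed by 0.79 (edgeR adjusted p = 0.267) and Dusp5 by 1.60 (edgeR adjusted p = 0.313), both with rat 13 highest. Leaving out rat 13 gave 0.25 for Klf10 and -0.21 for Dusp5.

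Related genes of the same pathway were read in rat 11 next. Of 30 other immediate early genes, 4 exceeded 2 times the 18-rat median in rat 11, against 0.499% of all genes. Rat 11 was highest for 8 of the 30, against 1.91% of all genes. The 30 genes had a median log2 ratio to the other 17 rats of 0.26, against 1.27 for the 35 genes. Ccn1, a matrix protein induced through SRF, had 29.5 CPM in rat 11 against 10.6 CPM at most in the other rats, and Ppp1r15a (GADD34) had 45.8 CPM against 29.5 CPM at most. The 20 late response genes are transcribed after the immediate early genes and encode secreted and synaptic proteins. In rat 11, 0 of them exceeded 2 times the 18-rat median, against 0.499% of all genes. At so low a share, a count of 0 in a list of this size says little. The late response genes had a median log2 ratio of 0.21. Bdnf, a neurotrophin, had 11.8 CPM in rat 11, against 20.8 CPM in chronic ethanol rat 8 and 35 CPM in control rat 5. Of 32 upstream regulators (CREB, SRF, MEF2 and their kinases and coactivators), 0 exceeded 2 times the 18-rat median there, again beside 0.499% of all genes. The ratios of these regulators in rat 11 were -0.16 to 0.32 on the log2 scale.

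**Figure D5:**
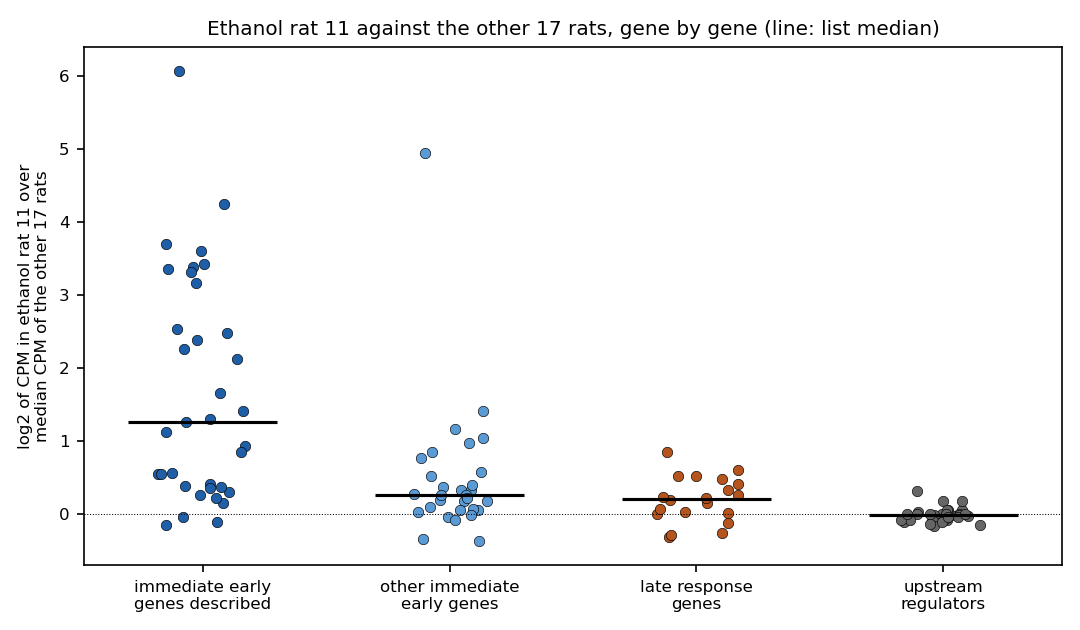
Each point is a tested gene, placed by the log2 ratio of its CPM in chronic ethanol rat 11 to the median of the other 17 rats (y axis), for 4 gene lists (x axis), with a line at the list median. Medians are 1.27 for the genes described here, 0.26 for other immediate early genes, 0.21 for late response genes and -0.01 for upstream regulators.

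Between groups, edgeR called 0 genes of these 3 lists at an adjusted p under 0.05 in any comparison. In chronic ethanol against control, unadjusted p values under 0.05 were found for 3 of 30 other immediate early genes, 1 of 20 late response genes and 3 of 32 upstream regulators, against 5.84% of all genes, and the list medians were 0.09, -0.03 and 0.05. Jund, a Jun relative present at steady levels, had 58.9 to 106 CPM (median 76) in chronic ethanol rats, against 50.5 to 73.6 CPM (median 53.5) in control rats, a log2 change of 0.47 ± 0.12 (edgeR adjusted p = 0.346). It was 0.48 without rat 11, so Jund did not follow that rat. Ccn1 differed by 2.46 (edgeR adjusted p = 0.822), and by 1.18 without rat 11. The next genes by p were the kinase Camk2a (0.79) and Srf (0.15) upstream, and the secreted pentraxin Nptx2 (0.80) and the neuropeptide Sst (0.47) among late genes, with adjusted p of 0.834 to 0.969 (edgeR). Camk2a was at 0.37 and Nptx2 at 0.53 without chronic ethanol rat 7, and Sst was at 0.23 without chronic ethanol rat 8.

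In withdrawal against control, the counts at an unadjusted p under 0.05 were 4 of 30, 3 of 20 and 3 of 32, all higher, against 9.82% of all genes, with list medians of 0.12, 0.09 and 0.11. Spry2, an ERK-induced inhibitor of receptor tyrosine kinase signalling, had 39.4 to 50.5 CPM (median 46.5) in withdrawal rats, against 33.4 to 39.4 CPM (median 36.3) in control rats, a log2 change of 0.33 ± 0.08 (edgeR adjusted p = 0.302). Like Dusp6, it feeds back on the ERK pathway. With the index added, Spry2 differed by 0.18 ± 0.15 (edgeR adjusted p = 0.795). Cebpd differed by 0.62 (edgeR adjusted p = 0.431), the coactivator Ep300 by 0.19 (0.403) and Atf1, a CREB relative, by 0.24 (0.453). Nptx1 differed by 1.37 (edgeR adjusted p = 0.389) and the opioid precursor Penk by 1.40 (0.45), and both were highest in rat 13, at 384 and 282 CPM. Without rat 13 the values were 0.67 for Nptx1, 0.63 for Penk, 0.39 for Cebpd and 0.15 for Atf1, and without rats 5, 8, 13 and 17 they were 0.25, 0.04, 0.33 and 0.11.

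In withdrawal against chronic ethanol, they were 1 of 30, 3 of 20 and 5 of 32, against 15.3% of all genes. Creb1, the gene of CREB, had 33.3 to 48.4 CPM (median 36.4) in withdrawal rats, against 28.8 to 35.8 CPM (median 31) in chronic ethanol rats, a log2 change of 0.28 ± 0.09 (edgeR adjusted p = 0.177). Atf1 differed by 0.28 (edgeR adjusted p = 0.205), and both were highest in rat 13. Jund differed by -0.36 (edgeR adjusted p = 0.196) and Gadd45g by 0.92 (0.327), while among late genes Baz1a differed by 0.62 (0.265) and Nptx1 by 0.96 (0.306). Rat 13 was highest for Gadd45g (43.7 CPM, against a withdrawal median of 6.01 CPM), Baz1a (30.5 against 10.5 CPM) and Nptx1 (384 against 74.2 CPM). Without rat 13 Gadd45g turned to -0.08, Baz1a had 0.20, Nptx1 0.26, Atf1 0.18 and Creb1 0.20, while Jund had -0.38.

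Marker lists were set beside these comparisons. Summed red blood cell genes were 93.5 to 175 CPM (median 111) in withdrawal rats, 53 to 237 CPM (median 119) in chronic ethanol rats and 186 to 527 CPM (median 266) in control rats. All 5 genes of this list were detected, and its part in the differences from control was not tested. Endothelial genes, given beside Klf2, summed to 362 to 574 CPM (median 494) in withdrawal rats, 429 to 575 CPM (median 489) in chronic ethanol rats and 366 to 537 CPM (median 446) in control rats. Neuron markers summed to 6605 to 10101 CPM (median 6833) in withdrawal rats, 5495 to 7641 CPM (median 7093) in chronic ethanol rats and 6696 to 8720 CPM (median 7411) in control rats.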

How the data were processed

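The authors deposited counts of read pairs, made by featureCounts 1.5.0 per the file headers (exon features joined by gene, pairs on the reverse strand, chimeric pairs left out). STAR 2.5.2a, R 3.3.3, limma and the Rnor_6.0 genome are named in the submitters' processing notes. RNA came from stranded mRNA libraries with RNA integrity above 8.0, per the labels. Counts were checked to be whole numbers.

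Gene identifiers were matched to symbols in a RefSeq table of a later assembly (29322 of 38445). TMM factors scaled the CPM values. The test, on genes that filterByExpr kept, was the two-sided quasi-likelihood test of edgeR 4.0.16 (all 18 libraries, group only, R 4.3.3). The SE is the size of the log2 change over the square root of F. A gene was called where its p, adjusted by Benjamini-Hochberg over all genes, was under 0.05. DESeq2 1.42.0, limma-voom (limma 3.58.1), other scaling and filters, the index as a term and left-out rats were alternatives. The fit was tested on simulated data.

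The members and lists were chosen with earlier results of these data known, so lists have counts and medians and no test. Changes are given for Fos, Arc, called genes and the 8 genes with the lowest p per comparison, and for the 2 with the lowest p in each of the other lists. Genes named for their level in rat 11 or another rat, and the 10 named without rat 11, were picked after their values were seen. The rats are separate animals. Rats 5, 8, 13 and 17, with and without rat 11, were left out as alternatives added after the data were seen, as was rat 11 from the fit with the index. No genome of the files' assembly was used.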

Additional observations from a re-analysis of the deposited data

Results flagged for a closer look

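Within each group of 6 rats, the gap between the highest or lowest rat and its neighbour was set against the whole range of the group, for each of the 36 genes (108 gene and group pairs, critical ratio 0.625). Of these pairs 45 passed. Chance passes about 1 in 20 groups, and the genes are not independent of each other, since the same rats recur.

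Chronic ethanol rat 11 stood far above the other chronic ethanol rats for 18 genes, with values in CPM: Fos (123), Fosb (76.8), Jun (121), Junb (45.4), Atf3 (8.88), Egr1 (80.6), Egr2 (0.685), Egr3 (14), Egr4 (3.4), Nr4a1 (68.9), Npas4 (40.4), Sik1 (17.3), Klf4 (25.9), Ier2 (39.5), Ier3 (9.52), Btg2 (106), Csrnp1 (9.05) and Zfp36 (45.3). Rat 11 was named by its Fos level, so its pass for Fos is a description.

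Withdrawal rat 13 stood far above the other withdrawal rats for 10 genes, in CPM: Fos (27.3), Fosb (3.62), Jun (81.7), Junb (15.6), Atf3 (3.92), Dusp5 (22.2), Klf10 (22.9), Ier2 (14.1), Ier3 (7.81) and Btg2 (25.1). It stood far below them for Arc, at 4.65 CPM.

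Control rat 5 stood far above the other control rats for 11 genes, in CPM: Fos (30.3), Fosb (2.93), Fosl2 (2.97), Egr1 (15.8), Egr4 (1.16), Nr4a1 (15.3), Npas4 (8.78), Arc (37.3), Dusp4 (7.22), Ier5 (22.1) and Csrnp1 (7.08). Fos, Fosb, Egr1, Egr4, Nr4a1, Npas4 and Csrnp1 are on its list and on that of rat 11.

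Control rat 3 stood far above the other control rats for Maff (3.71), Klf4 (9.39) and Ier3 (12.6) CPM. It also had the highest sums of smooth muscle (1039 CPM) and meningeal markers (399 CPM) of the 18 rats, whose part in these levels was not tested. Withdrawal rat 14 did so for Klf2, at 16.5 CPM, and withdrawal rat 18 for Dusp6, at 19.9 CPM.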

How the results depend on the processing

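No paired analysis was possible because no rat number occurs in more than 1 group. The count of immediate early genes called was 0 in each of the 3 pairwise comparisons under every alternative run. For any difference among the groups DESeq2 called 2 of 35 (Maff and Dusp6), where it called 1.69% of all genes, and 0 were called under the other alternatives. With single rats left out, the median log2 change of the 35 genes was 0.09 to 0.50 for chronic ethanol against control, 0.11 to 0.42 for withdrawal against control and -0.32 to 0.12 for withdrawal against chronic ethanol. Only leaving out rat 11 turned the sign of the last. It was also 0.12 without rats 5, 8, 11, 13 and 17. A fit with the index added gave -0.10 for withdrawal against control, and 0.63 there and 0.37 for withdrawal against chronic ethanol once rat 11 was left out too.

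Single genes turned as follows with 1 rat left out. In chronic ethanol against control, Fos had -0.11 to 1.98, Arc -0.27 to 1.08, Fosb -0.22 to 3.85 and Egr3 -0.01 to 1.76. In withdrawal against control, Fos had -0.06 to 0.87 and Arc -0.58 to 0.42. In withdrawal against chronic ethanol, Fos had -1.44 to 0.37, Fosb -3.60 to 0.48 and Dusp5 -0.21 to 1.79. With the index added, withdrawal against control gave -0.66 for Fos and 0.61 for Arc, and 1.83 and 1.35 when rat 11 was left out too. That last fit gave 1.27 for Fos, 0.48 for Arc, 0.93 for Fosb and 0.32 for Npas4 in withdrawal against chronic ethanol. Without rats 5, 8, 13 and 17, Arc had 0.50 in withdrawal against control (and 0.50 when rat 11 was left out too). Dusp5 had -0.18 without those 4 rats in withdrawal against chronic ethanol. Without rats 5, 8, 11, 13 and 17, that contrast gave 0.48 for Fos, 0.45 for Arc and 0.15 for Fosb. Beyond the rats left out, the causes were not tested. Dusp6 and Maff kept their direction under every alternative run. Egr2, Fosl1 and Egr4, near the floor of 3 counts in many rats, are limited by depth.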
